A study of Mus musculus with 6 samples.

Results

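Autophagy and lysosome genes encode the machinery that wraps cell contents in a membrane and digests them. The 42 genes described here were chosen by name, from the steps of autophagosome formation, cargo capture, transcriptional control and lysosomal digestion. Each name matched 1 row of the deposited tables, so 42 of the 55487 genes in the files are covered, and all 42 passed the filter on low counts.

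In autophagy, a kinase complex around Ulk1 starts the process, a lipid kinase complex around Becn1 marks the site, and a conjugation system attaches Atg8 family proteins (the LC3 and GABARAP proteins) to the growing membrane. Receptors such as Sqstm1 and Bnip3 tether cargo to these proteins, and the closed vesicle fuses with a lysosome, where acid hydrolases digest what it holds. The factors Tfeb, Tfe3 and Mitf switch on many of these genes through a short DNA element called CLEAR. In heart muscle the pathway is known for clearing damaged mitochondria, and loss of Lamp2 causes an inherited cardiomyopathy.

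Left ventricular tissue came from 8-week-old male wild-type C57BL/6 mice, and the study is on alcoholic cardiomyopathy. The ET mice were fed a diet with 5% ethanol for 10 days and received 1 ethanol gavage, and the CONT mice were fed an isocaloric diet and received 1 maltose-dextrin gavage. Ventricles were collected 9 h later, and 3 libraries were sequenced per group, numbered here in the order of deposit, with 28838386 to 37762233 expected counts each. Whether every library is a different mouse is not stated in the labels, and the p-values therefore measure the spread between these libraries, which may be technical. In bulk tissue, fewer cells of a type and less RNA per cell cannot be told apart.

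Some libraries stood apart in cell type markers. The summed level of 8 cardiomyocyte markers was 31000 CPM (counts scaled to library size) in ET replicate 1, and 48000 to 53700 in the other ET libraries against 49700 to 57800 in the CONT libraries. All 8 were detected in every library. The 12 macrophage markers summed to 724 CPM in ET replicate 1 and to 308 in each other ET library, against 298 to 302 CPM in the CONT libraries. The 7 fibroblast markers summed to 1820 CPM in ET replicate 1 and to 561 to 704 CPM in the other libraries. For the 6 mesothelial markers the sums were 177 CPM in ET replicate 1 and 7.42 to 29.7 CPM in the other libraries. The 6 endothelial markers summed to 1110 and 1000 CPM in CONT replicates 1 and 2. They summed to 577 CPM in CONT replicate 3 and to 538 to 862 CPM in the ET libraries. The tested atrial markers, 5 of 6, reached 9030 CPM in ET replicate 1 and 1530 in CONT replicate 3, and lay between 60.9 and 339 in the other libraries. ET replicate 1 and CONT replicate 3 thus held atrial transcripts that the left ventricle label does not give. They did not share all of them. The remaining atrial marker, Bmp10, had 3566 expected counts in CONT replicate 3 and 0 to 2 in each other library, ET replicate 1 included. In ET replicate 3 the tested neutrophil markers, 4 of 7, summed to 42 CPM and the tested hepatocyte markers, 3 of 6, to 56.9, above the 1.7 to 7.4 and 0.192 to 4.08 CPM of the other libraries. Effective gene lengths also placed ET replicate 1 with CONT replicates 1 and 2 (set 1) and ET replicates 2 and 3 with CONT replicate 3 (set 2). A ratio within a set therefore rests on 1 ET library in set 1 and on 1 CONT library in set 2.

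Setting ET against CONT asks which of these transcripts respond to the ethanol diet and gavage. The genes with the lowest p were Gabarapl1, an Atg8 family member, and Ctsl, a lysosomal protease, both higher in every ET library than in any CONT library. None of the 42 genes passed the quasi-likelihood test of edgeR when p was adjusted over all genes (Benjamini-Hochberg), where 0 of 15727 genes (0%) passed. At an unadjusted p under 0.05 stood 6 of the 42 genes, against 8.65% of all genes. Of these, 5 were higher in ET (4.19% of all genes) and 1 was lower (4.46%). With DESeq2, 2 genes passed, Gabarapl1 and Ctsl, both higher in ET (0.668% of all genes), and with limma-voom 0 passed while 6 had an unadjusted p under 0.05 (8.06% of all genes).

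The log2 fold change (ET over CONT) was above 0 in 36 of the 42 genes, against 51.9% of all genes, with a median of 0.18 against 0.01 over all tested genes. Taken separately, the library sets gave medians for the 42 genes of 0.07 (set 1) and 0.13 (set 2). On log2(TPM + 1), where the fold changes of all genes shifted by 0.15, 41 of the 42 genes were above 0. With a term for library set in the model 31 were above 0, and without ET replicate 3 the number was 30. In 10 genes the CPM range of ET lay wholly outside that of CONT, against 15.2% of all genes. These were 7 genes higher in ET (6.89% of all genes) and 3 lower (8.36%). The split depended on the scaling, with 4 higher and 4 lower under upper-quartile factors, 15 and 2 with library totals, and 14 and 0 on TPM. The other 32 genes had overlapping ranges, with fold changes between -0.12 for Mcoln1 and 1.11 for Bnip3.

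**Figure D1:**
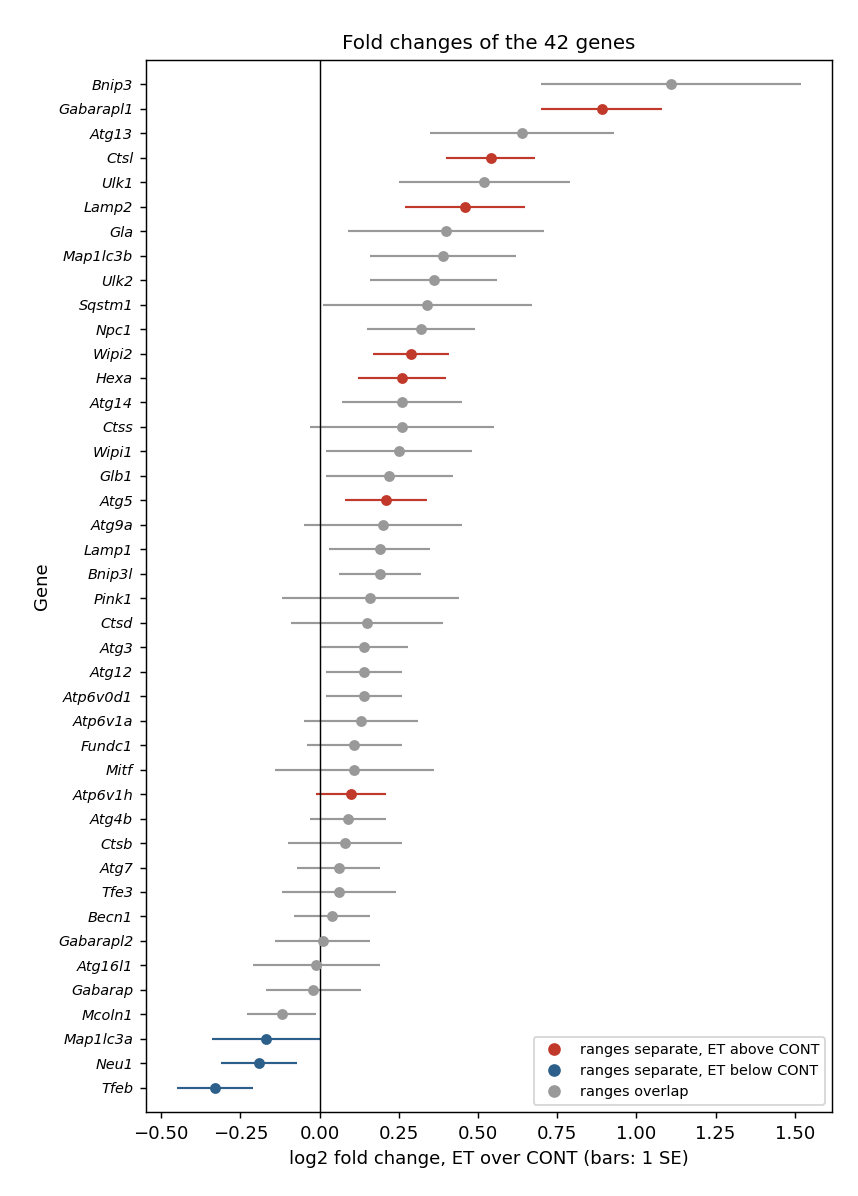
Log2 fold change of each of the 42 genes, ET over CONT, with 1 SE from edgeR; colours show whether the CPM ranges of the groups were separate. Of the 42 points 36 lie right of 0, and 7 genes were separate with ET above CONT and 3 with ET below CONT.

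Single libraries held much of this pattern. ET replicate 3 was the highest of the 6 libraries for 25 of the 42 genes, where 23.9% of all tested genes had their highest value. ET replicate 1 was the highest for 8 genes, Bnip3l, Tfe3, Ctsb, Ctss, Hexa, Gla, Glb1 and Atp6v1a. It was the lowest for 12 others, among them Pink1, Atg9a, Atg16l1 and Ctsd. These counts lie near the shares of all tested genes that were highest (25.5%) or lowest (24.3%) in that library. CONT replicate 1 was the lowest for 16 genes, against 13.7% of all tested genes.

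**Figure D2:**
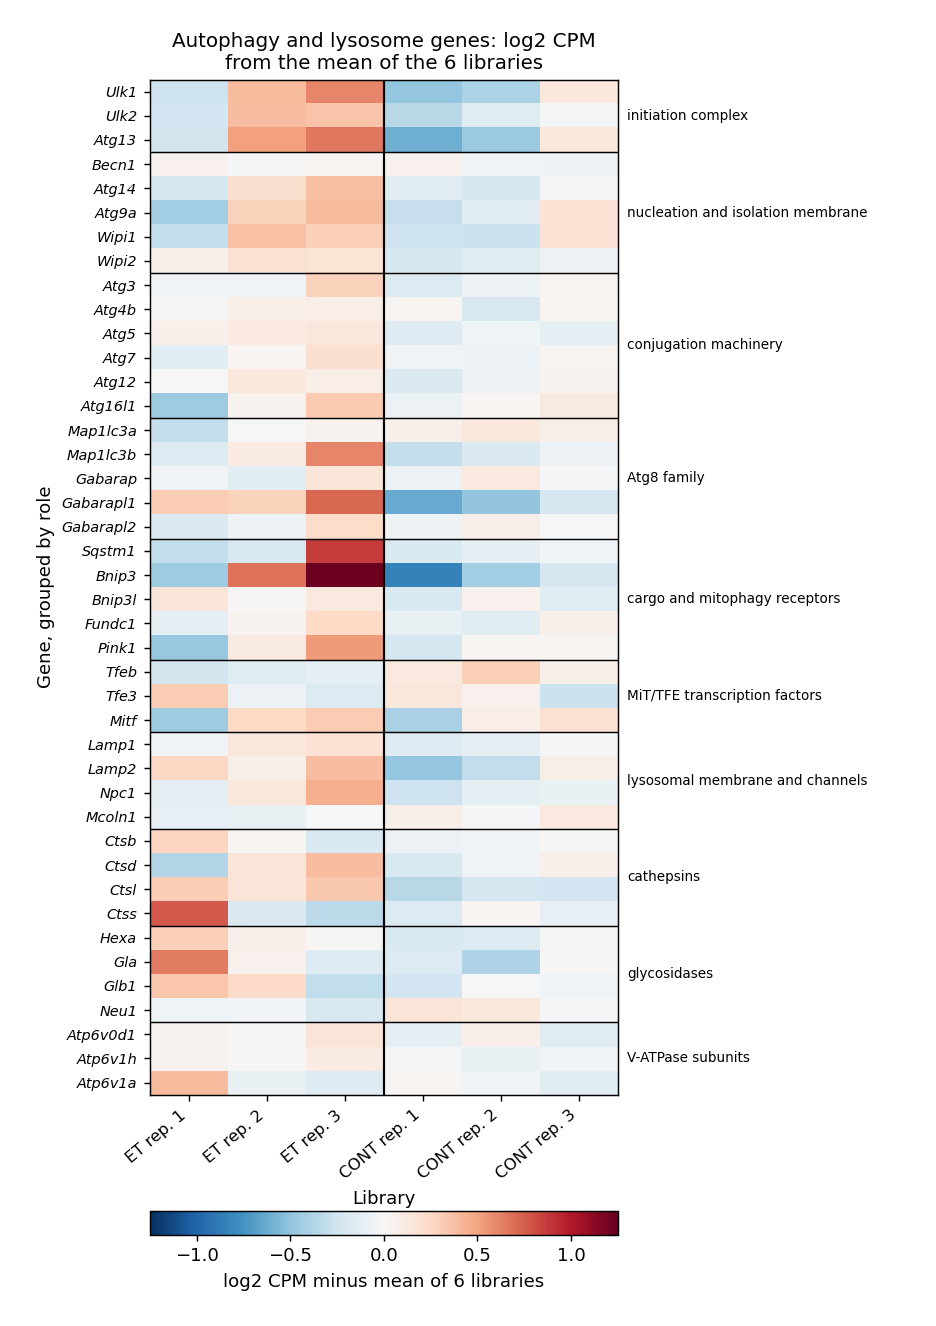
Log2 CPM of each gene as the difference from its mean over the 6 libraries, with ET libraries left of CONT libraries and genes grouped by role. Bnip3 spans the widest range, at 1.23 in ET replicate 3 and -0.84 in CONT replicate 1, and Ctss stands at 0.77 in ET replicate 1.

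The 3 initiation genes, the kinases Ulk1 and Ulk2 and their adaptor Atg13, had overlapping ranges and fold changes of 0.52 ± 0.27, 0.36 ± 0.20 and 0.64 ± 0.29 (log2, ± SE). Atg13 was at 39.4, 66 and 73.3 CPM in ET replicates 1 to 3, against 30.3, 33.6 and 50.5 CPM in CONT replicates 1 to 3. Ulk1 was at 53.4, 84.1 and 97.4 CPM in the ET libraries, against 45.7, 48.3 and 69.6 CPM in the CONT libraries. Within set 1 and set 2 the log2 fold changes were 0.30 and 0.46 for Atg13, 0.18 and 0.38 for Ulk1, and 0.01 and 0.39 for Ulk2. In Atg13 and Ulk1 ET replicate 1 lay below CONT replicate 3. The summed tested atrial markers, without Bmp10, were highest in exactly these libraries, and the part this plays in the result was not tested. Library set, whose part was not tested either, also differs between ET replicate 1 and CONT replicate 3. With both left out, 6 of the 42 genes passed edgeR's test, all higher in ET, where 3.37% of all genes did so: Atg13 (log2 fold change 1.14, adjusted p 0.0168), Ulk1 (0.97, 0.0236), Bnip3 (1.62, 0.0283), Gabarapl1 (1.1, 0.0297), Wipi1 (0.62, 0.0406) and Ulk2 (0.64, 0.0434). The CONT and ET libraries left in that fit belong to different library sets, so group and set cannot be told apart in it.

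Of the 5 nucleation and isolation membrane genes, Wipi2, which binds the lipid made by the Becn1 complex and recruits Atg16l1, had separate ranges. Wipi2 (ENSMUSG00000029578, chromosome 5 at 142627698 to 142670588 of GRCm38, plus strand) was at 40.5, 44.2 and 43.5 CPM in ET libraries, against 33.2, 34.9 and 36.8 CPM in CONT libraries. Its means were 42.7 ± 1.94 CPM in ET and 35.0 ± 1.79 CPM in CONT (SD, n = 3 each), with a log2 fold change of 0.29 ± 0.12 (edgeR adjusted p 0.567) and 0.25 in each library set. Its paralog Wipi1 had 0.25 ± 0.23, and Atg9a, a scramblase that supplies membrane, had 0.20 ± 0.25. Atg14, which directs the lipid kinase to the autophagosome site, had 0.26 ± 0.19. Becn1, the core of that complex, had 0.04 ± 0.12, at 44.6 ± 0.818 CPM in ET and 43.4 ± 1.82 CPM in CONT.

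Among the 6 conjugation genes the fold changes were small, between -0.01 for Atg16l1 and 0.21 for Atg5. Atg5, joined to Atg12 in the complex that helps attach Atg8 proteins to lipid, was at 7.81, 8.11 and 8.27 CPM in ET libraries, against 6.70, 7.23 and 6.95 CPM in CONT libraries. Its ranges were separate by 0.585 CPM (log2 fold change 0.21 ± 0.13, edgeR adjusted p 0.637). Atg12 had 0.14 ± 0.12, and Atg3 and Atg7, the enzymes that carry and activate the Atg8 proteins, had 0.14 ± 0.14 and 0.06 ± 0.13. Atg4b, the protease that trims them, had 0.09 ± 0.12. Atg16l1 was the most variable of the 6 in ET, at 16.2, 22.5 and 27.6 CPM, against 20.9, 22.2 and 23.7 CPM in CONT.

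The Atg8 family held both the gene of lowest p among the 42 and genes with fold changes near 0. Gabarapl1 (ENSMUSG00000030161, chromosome 6 at 129533160 to 129542346, plus strand) was at 111, 108 and 146 CPM in ET libraries, against 57.3, 63.3 and 76.6 CPM in CONT libraries. All ET libraries lay above all CONT libraries, by 31.5 CPM at the closest. Its log2 fold change was 0.89 ± 0.19 (edgeR unadjusted p 0.00229, adjusted p 0.45, and DESeq2 adjusted p 0.00512), with 0.88 in set 1 and 0.73 in set 2. An opposite-strand gene, 1700101I11Rik, covers 28.32% of its exon bases and held 15 to 37 expected counts per library, against 1691 to 4491 for Gabarapl1. Whether the counting used strand is not given in the sources used here.

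Map1lc3b, the LC3 protein most often used to trace autophagosomes, was at 154, 184 and 263 CPM in ET libraries, against 141, 152 and 165 CPM in CONT libraries. ET replicate 1 lay within the CONT range, and the log2 fold change was 0.39 ± 0.23 (edgeR adjusted p 0.618). Map1lc3a, the family member with the highest level per length, was at 293, 361 and 372 CPM in ET libraries, against 378, 398 and 380 CPM in CONT libraries. Its ranges were separate with ET below (log2 fold change -0.17 ± 0.17, edgeR adjusted p 0.753). On log2(TPM + 1) the value was 0.023, where the median of all genes was 0.15, so its direction depended on the scale. Gabarap was at 129, 120 and 148 CPM in ET libraries, against 127, 144 and 131 CPM in CONT libraries (-0.02 ± 0.15). Gabarapl2 was at 41.1, 44.4 and 54.6 CPM in ET libraries, against 44.4, 48.8 and 46.4 CPM in CONT libraries (0.01 ± 0.15). For both genes the direction turned under another scaling.

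TPM (a level per gene length) allows the family members to be set beside each other within a library. Gabarapl1 made up 9.52%, 8.32% and 9.67% of the summed TPM of the 5 genes in ET libraries, against 4.64%, 4.80% and 5.97% in CONT libraries. Map1lc3b made up 14.9%, 17.2% and 21.2% in ET libraries, against 12.1%, 12.2% and 14.2% in CONT libraries. Map1lc3a made up 46.8%, 50.6% and 44.4% in ET libraries, against 56.1%, 54.5% and 53.7% in CONT libraries. For these 3 genes the shares in ET and CONT did not overlap. Shares within a library depend on each other, and the TPM of Map1lc3a itself was 385 ± 16.2 in ET and 380 ± 27.2 in CONT. The CPM ranges of Map1lc3b overlapped. Its effective length, by which TPM divides, was shorter in every ET library than in any CONT library. With 3 libraries against 3, an exact permutation test of 1 value cannot go below 0.10, and none was run. Gabarap (18.7% to 22.9% in ET, 20.3% to 22.2% in CONT) had overlapping shares. Gabarapl2 had 5.17% to 5.84% in ET and 5.85% to 6.28% in CONT, separate by a narrow margin.

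**Figure D3:**
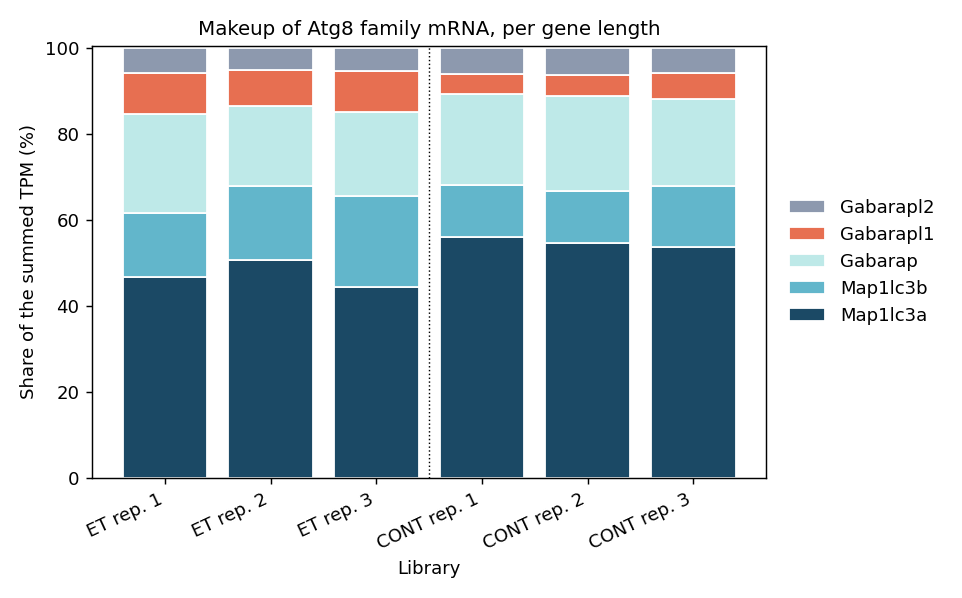
Share of each Atg8 family gene in the family's summed TPM, in percent, for each library, ET left of CONT. Gabarapl1 takes 8.32% to 9.67% in the ET libraries and 4.64% to 5.97% in the CONT libraries.

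Of the 5 cargo and mitophagy receptors, Bnip3 had the largest fold change of all 42 genes and an overlapping range, and it is described in full after its values were seen. Bnip3, a receptor on the outer mitochondrial membrane, lies on chromosome 7 at 138890836 to 138909519 (ENSMUSG00000078566, minus strand). It was at 99.8, 217 and 316 CPM in ET libraries, against 75.3, 101.29 and 117 CPM in CONT libraries. ET replicate 1 lay among the CONT libraries and the other ET libraries above all of them. The log2 fold change was 1.11 ± 0.41 (edgeR adjusted p 0.533), at 0.18 in set 1 and 1.19 in set 2. The opposite-strand gene Gm45507 covers 22.25% of its exon bases and was listed with 216 expected counts in ET replicate 1, 90 in CONT replicate 1 and 0 elsewhere.

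Sqstm1, the receptor p62 for ubiquitinated cargo, had 1 library far above the others, at 259, 278 and 587 CPM in ET libraries, against 280, 297 and 310 CPM in CONT libraries. Its high value was in ET replicate 3, the library with the highest neutrophil and hepatocyte markers, whose part was not tested. The log2 fold change was 0.34 ± 0.33 (edgeR adjusted p 0.746). Pink1, the kinase that marks damaged mitochondria, was at 355, 531 and 713 CPM in ET libraries, against 423, 501 and 504 CPM in CONT libraries. Its group ranges overlapped, with ET libraries at both ends (0.16 ± 0.28). Bnip3l, a paralog of Bnip3, had 0.19 ± 0.13, with 0.22 in each set, and Fundc1, another mitochondrial receptor, had 0.11 ± 0.15.

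**Figure D4:**
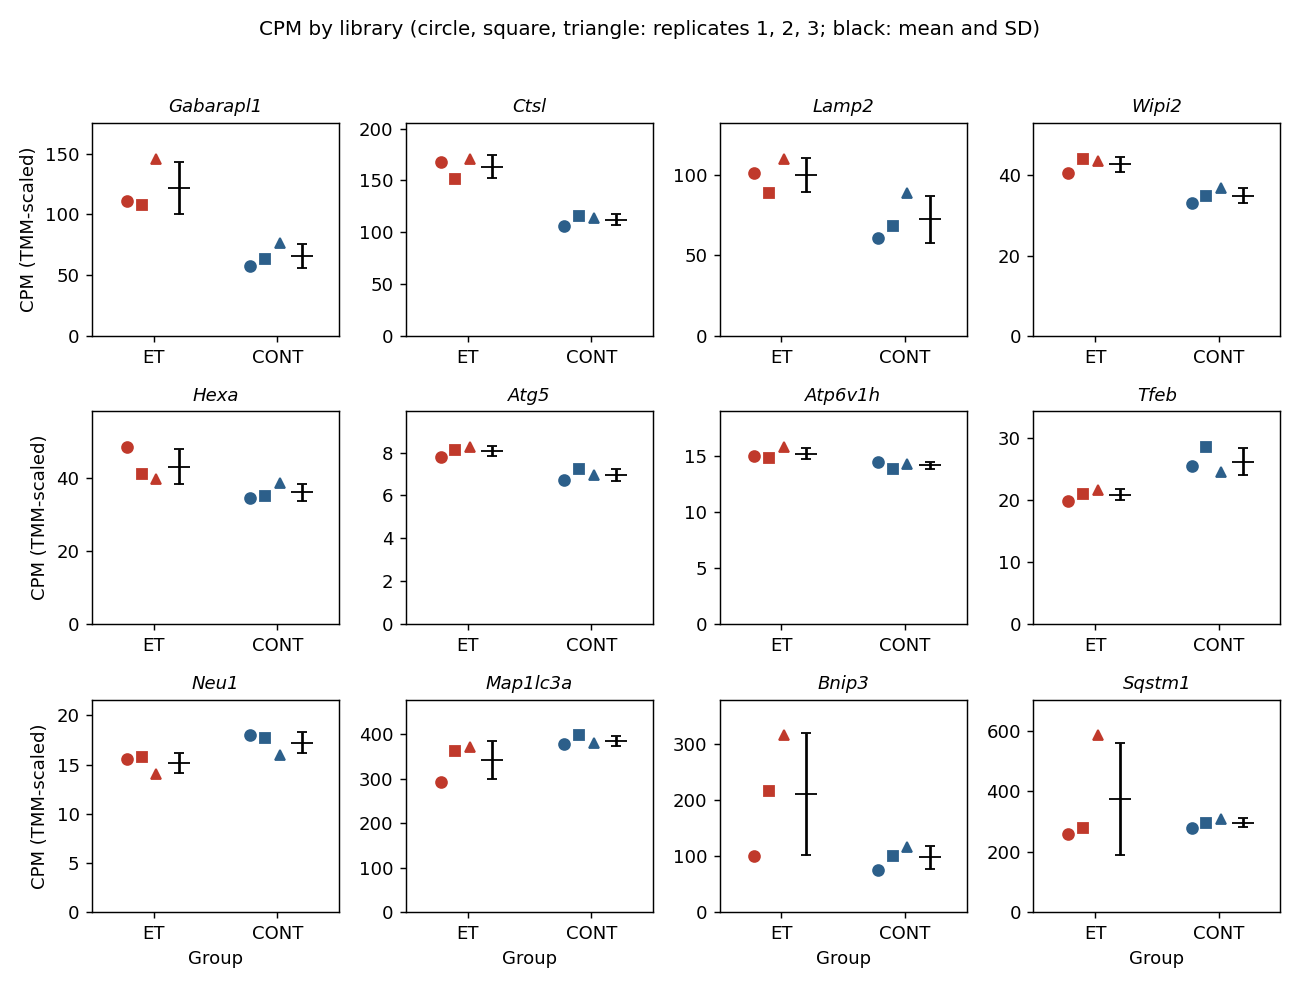
CPM in each library for the 10 genes with separate ranges and for Bnip3 and Sqstm1, ET left of CONT in each panel, with the mean and SD in black. Gabarapl1 and Ctsl stand clear of the CONT libraries in all 3 ET libraries, while Bnip3 and Sqstm1 are spread widely within ET.

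Of the 3 MiT/TFE factors, Tfeb was the only gene of the 42 with an unadjusted p under 0.05 and a lower level in ET. Tfeb (ENSMUSG00000023990, chromosome 17 at 47737030 to 47792419, plus strand) was at 19.9, 21 and 21.7 CPM in ET libraries, against 25.5, 28.6 and 24.5 CPM in CONT libraries. The ranges were separate by 2.79 CPM, with a log2 fold change of -0.33 ± 0.12 (edgeR unadjusted p 0.0289, adjusted p 0.533). Values within the sets were -0.44 and -0.20. Tfe3 and Mitf had 0.06 ± 0.18 and 0.11 ± 0.25 with overlapping ranges. Per length, Tfeb made up 47.2%, 44.4% and 45.9% of the summed TPM of the 3 factors in ET libraries, against 57.6%, 56.6% and 49.3% in CONT libraries.

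These factors bind the CLEAR element, so its letters were looked for in RefSeq windows (GRCm38.p6) of 250 bases before and 50 after the transcript start, which 34 of the 42 genes had. The windows of Atg12, Atg16l1, Atp6v1h, Becn1, Bnip3l, Ctsb, Map1lc3a and Npc1 were not in the table. The 8-letter core TCACGTGA, which reads the same on both strands, was found in 6 of the 34 genes (17.6%), against 1.12% of 27025 genes in the table and 2.03% of the 11110 that were also tested here. The 10-letter palindrome with a G before and a C after this core was in 0 of 34 (0.37% of all genes, 0.72% of those tested). The 6-letter E-box CACGTG, contained in both longer motifs, was in 13 of 34 (38.2%, against 8.09% of all genes and 11.59% of those tested). The FoxO element GTAAACA, searched on both strands, was in 0 of 34 (4.05% of all genes, 3.2% of those tested). The sequences around each core are shown because they carry the shared feature of these genes, 5′ to 3′ on the strand of the gene, with the motif in capitals.
Atg3: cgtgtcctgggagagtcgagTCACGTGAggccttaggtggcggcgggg
Atp6v0d1: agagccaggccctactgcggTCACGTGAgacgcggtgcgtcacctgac
Atp6v1a: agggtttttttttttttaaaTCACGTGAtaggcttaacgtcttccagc
Ctsd: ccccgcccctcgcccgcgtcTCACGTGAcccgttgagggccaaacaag
Gla, nearer copy: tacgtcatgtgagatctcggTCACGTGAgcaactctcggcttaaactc
Gla, farther copy: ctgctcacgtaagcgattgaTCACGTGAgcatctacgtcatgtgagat
Mcoln1: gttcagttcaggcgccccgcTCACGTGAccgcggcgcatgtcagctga

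The core begins 72 bases before the start in Atg3 (chr16:45158737-45158784, plus strand), 4 in Atp6v0d1 (chr8:105566041-105566088, minus), 132 in Atp6v1a (chr16:44139364-44139411, minus), 99 in Ctsd (chr7:142387899-142387946, minus) and 46 in Mcoln1 (chr8:3500453-3500500, plus). In Gla the copies begin 195 and 228 bases before it (chrX:134601173-134601220 and chrX:134601206-134601253, minus). The 6 genes had log2 fold changes of -0.12 (Mcoln1) to 0.40 (Gla) with a median of 0.14, and the ranges of all 6 overlapped between ET and CONT. Lamp1, Ctsl and Bnip3 carry the E-box without the full 8-letter core, and are shown since Lamp1 carries 4 copies within 61 bases of its start and the others stand among the genes of lowest p. The 13 genes with the E-box had a median log2 fold change of 0.19, against 0.18 for all 42. The 42 include these 13 and the genes without a window. Ranges were separate in 2 of the 13 (15.2% of all genes). Gabarapl1, the gene of lowest p, had a window without the E-box. A match of letters is a description and does not show that a factor binds there.
Lamp1: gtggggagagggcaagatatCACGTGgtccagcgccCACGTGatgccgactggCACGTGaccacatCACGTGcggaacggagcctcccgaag
Ctsl: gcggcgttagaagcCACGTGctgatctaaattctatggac
Bnip3: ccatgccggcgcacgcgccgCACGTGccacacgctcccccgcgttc

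These stretches lie at chr8:13159080-13159171 (plus strand), chr13:64370731-64370770 (minus) and chr7:138909589-138909634 (minus).

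Among the 4 lysosomal membrane genes, Lamp2, a major membrane glycoprotein needed for fusion with autophagosomes, was at 100.55, 88.5 and 110 CPM in ET libraries, against 60.6, 68.0 and 88.5 CPM in CONT libraries. The ranges were separate by 0.0177 CPM only, since ET replicate 2 and CONT replicate 3 had nearly the same value. Lamp2 (ENSMUSG00000016534, chromosome X at 38401357 to 38456454, minus strand) had a log2 fold change of 0.46 ± 0.19 (edgeR unadjusted p 0.0429, adjusted p 0.567), with 0.65 in set 1 and 0.17 in set 2. Lamp1, the other major glycoprotein, was at 286 ± 21.3 CPM in ET and 251 ± 12.9 CPM in CONT (0.19 ± 0.16). Npc1, which exports cholesterol from the lysosome, had 0.32 ± 0.17, and the calcium channel Mcoln1 had -0.12 ± 0.11.

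Of the 4 cathepsins, the proteases of the lysosome, Ctsl (ENSMUSG00000021477, chromosome 13 at 64359337 to 64370890, minus strand) had separate ranges. It was at 168, 151 and 171 CPM in ET libraries, against 106, 116 and 114 CPM in CONT libraries. The closest ET and CONT libraries differed by 35.1 CPM. The log2 fold change was 0.54 ± 0.14 (edgeR unadjusted p 0.00687, adjusted p 0.478, and DESeq2 adjusted p 0.0043), with 0.60 in set 1 and 0.49 in set 2. The opposite-strand gene Gm47123 covers 26.85% of its exon bases, with 7 to 25 expected counts per library against 3086 to 6290 for Ctsl. Within the summed TPM of the 4 cathepsins, Ctsl made up 33.4%, 28.1% and 28.1% in ET libraries, against 23.5%, 23.9% and 23.5% in CONT libraries.

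Ctss, a cathepsin typical of macrophages, was at 17.3, 8.97 and 8.07 CPM in ET libraries, against 9.00, 10.3 and 9.47 CPM in CONT libraries. The single high value was in ET replicate 1, the library where macrophage markers were highest. Ctsb and Ctsd ran in opposite order over the ET libraries, with Ctsb at 342, 288 and 249 CPM and Ctsd at 471, 683 and 798 CPM. In CONT libraries Ctsb was at 271 to 286 CPM and Ctsd at 533 to 635 CPM. The log2 fold changes were 0.26 ± 0.29 for Ctss, 0.08 ± 0.18 for Ctsb and 0.15 ± 0.24 for Ctsd. Exons of Ctsb overlap the opposite-strand gene Fdft1 (633 to 1779 expected counts) and those of Ctsd the same-strand gene Gm49369 (0 to 366), so reads may be split between the genes of each pair.

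The 4 glycosidases cleave sugars from glycolipids and glycoproteins. Hexa, the alpha subunit of beta-hexosaminidase, was at 48.4, 41.0 and 39.5 CPM in ET libraries, against 34.4, 34.9 and 38.6 CPM in CONT libraries. Its ranges were separate by 0.929 CPM (log2 fold change 0.26 ± 0.14, edgeR adjusted p 0.59), with 0.48 in set 1 and 0.06 in set 2. Neu1, a sialidase, was at 15.6, 15.8 and 14.0 CPM in ET libraries, against 18, 17.7 and 16 CPM in CONT libraries. Its ranges were separate with ET below (-0.19 ± 0.12, edgeR adjusted p 0.644), but the value was 0.088 on log2(TPM + 1), where the median of all genes was 0.15. Gla and Glb1, which cleave galactose from glycolipids, had 0.40 ± 0.31 and 0.22 ± 0.20.

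The V-ATPase pumps protons into the lysosome, and its 3 subunits had fold changes of at most 0.14. Atp6v1h, a regulatory subunit, was at 15.0, 14.8 and 15.8 CPM in ET libraries, against 14.4, 13.8 and 14.3 CPM in CONT libraries. The ranges were separate, with a log2 fold change of 0.10 ± 0.11 (edgeR adjusted p 0.776). Atp6v0d1, a subunit of the membrane sector, had 0.14 ± 0.12. Atp6v1a, the catalytic subunit, had 0.13 ± 0.18 and its highest value in ET replicate 1.

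In the lists of other pathway genes, 0 of 150 tested genes passed edgeR's test, 0 passed with limma-voom and 1, Ddit4, with DESeq2. By edgeR, 10 had an unadjusted p under 0.05 and were higher in ET (4.19% of all genes) and 2 were lower (4.46%). Ranges were separate in 15 higher (6.89% of all genes) and 7 lower genes (8.36%). The median log2 fold change was 0.13, with 107 of 150 above 0, against 51.9% of all genes. Among 22 other autophagosome formation genes, 3 were higher and 1 lower at an unadjusted p under 0.05. Rubcn, which restrains the lipid kinase complex, was at 25.3 ± 1.48 CPM in ET and 32.7 ± 2.20 CPM in CONT (-0.37 ± 0.12). Vmp1, a lipid scramblase, was at 35.1 ± 8.61 CPM in ET and 22.9 ± 2.06 CPM in CONT (0.62 ± 0.20). Uvrag had 0.37 ± 0.13 and Rb1cc1, the scaffold of the Ulk1 complex, had 0.49 ± 0.20.

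A further list held 34 genes of mTORC1, the kinase complex that holds autophagy back, and of its regulators. At an unadjusted p under 0.05 by edgeR, 3 were higher (4.19% of all genes) and 1 lower (4.46%). Ddit4, a stress-induced inhibitor of mTORC1, was at 66.6, 62.1 and 87.5 CPM in ET libraries, against 33.6, 17 and 41.8 CPM in CONT libraries. Its ranges were separate, with a log2 fold change of 1.22 ± 0.33 (edgeR adjusted p 0.478). Deptor, another inhibitor of the complex, had 0.41 ± 0.14, Sesn3, a sestrin that lowers its activity, had 0.60 ± 0.20, and Lamtor4, part of its lysosomal anchor, had -0.38 ± 0.14. Of 16 other cargo receptors, Ncoa4, the receptor for ferritin, was at 45.1 ± 5.64 CPM in ET and 32.2 ± 6.36 CPM in CONT (0.49 ± 0.18). In the fusion list 0 of 14 genes had an unadjusted p under 0.05 (8.65% of all genes).

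On the lysosomal side, 28 of 32 other hydrolases had a fold change above 0, against 51.9% of all genes, with a median of 0.15. The median was 0.45 in set 1 and 0 to 2 decimals in set 2. In set 1 it rests on ET replicate 1, with its high macrophage, fibroblast and mesothelial markers, whose part was not tested. Lipa, the acid lipase, had 0.46 ± 0.20 and Man2b1, an alpha-mannosidase, 0.32 ± 0.13. These were the 2 of 32 with an unadjusted p under 0.05, both higher in ET (4.19% of all genes). Scarb2, a membrane protein that also carries beta-glucocerebrosidase to the lysosome, was at 171, 174 and 166 CPM in ET libraries, against 105, 113 and 143 CPM in CONT libraries (0.50 ± 0.17, edgeR adjusted p 0.515). It was 1 of 16 tested genes in the list of other lysosomal membrane and activator genes. Ranges were separate there in 2 higher (6.89% of all genes) and 2 lower genes (8.36%). Of the other V-ATPase subunits 16 of 19 were tested, 8 above and 8 below 0 with a median of -0.01. Atp6v0c, the proton-carrying ring subunit, was at 127 ± 3.70 CPM in ET and 143 ± 5.59 CPM in CONT (-0.17 ± 0.14).

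Averaged by role, the autophagy genes and the hydrolases had different profiles over the libraries. As mean log2 CPM from the mean of the 6 libraries, the initiation genes stood at -0.24, 0.43 and 0.54 in ET replicates 1 to 3, against -0.48, -0.34 and 0.08 in CONT replicates 1 to 3. The cargo and mitophagy receptors stood at -0.24, 0.13 and 0.60 in ET libraries, against -0.31, -0.12 and -0.06 in CONT libraries. The glycosidases stood at 0.32, 0.08 and -0.17 in ET libraries, against -0.11, -0.11 and -0.02 in CONT libraries. The other hydrolases stood at 0.35, 0.02 and -0.14 in ET libraries, against -0.06, -0.11 and -0.07 in CONT libraries. On average over these lists ET replicate 1 was the highest library for hydrolases. For initiation genes and receptors it was the lowest ET library, but CONT replicate 1 was lower still. For initiation genes CONT replicate 2 was lower too. ET replicate 1 and these CONT libraries form set 1, and the part of the set was not tested. On the same scale the macrophage markers of ET replicate 1 stood at 0.98, its fibroblast markers at 1.34 and its cardiomyocyte markers at -0.65. None of the 12 macrophage markers and none of the 8 cardiomyocyte markers was at 0 in any library, and the part of cell makeup in these profiles was not tested.

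**Figure D5:**
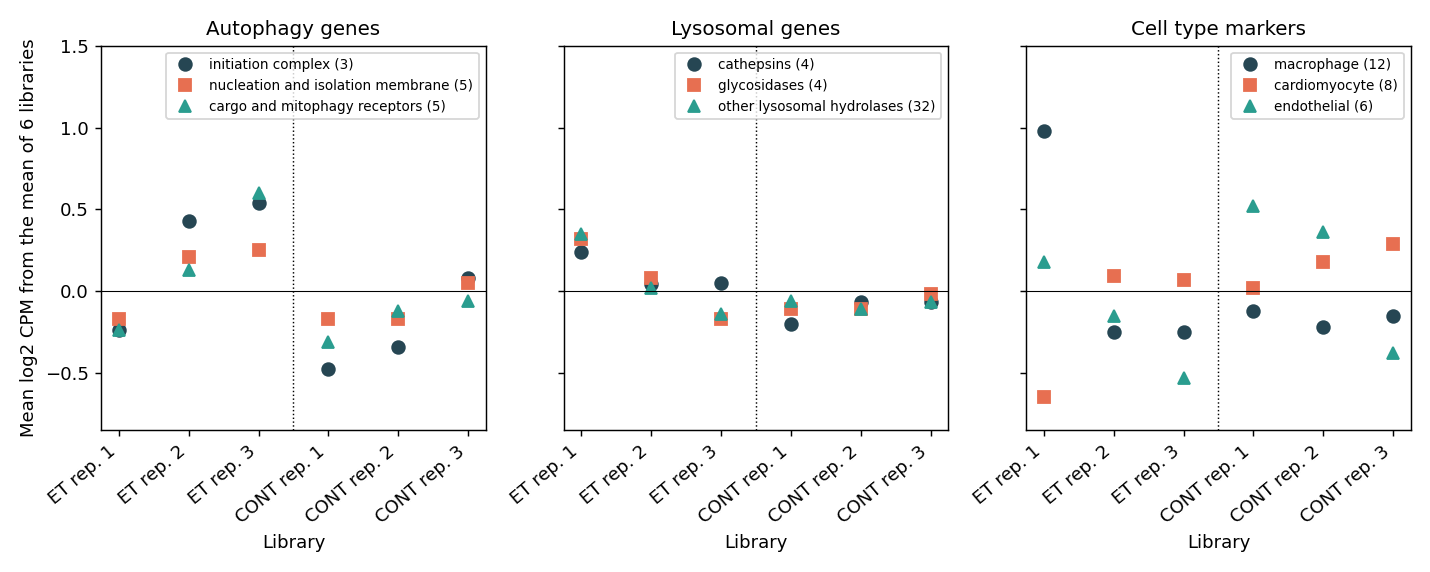
Mean log2 CPM of gene lists, centred on the 6-library mean, with ET left of CONT and the number of genes in brackets. In ET replicate 1 hydrolases and macrophage markers lie above 0 and autophagy genes and cardiomyocyte markers below it. The autophagy genes also lie below 0 in CONT replicates 1 and 2.

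Per gene length, the 42 genes covered a wide range of levels, with a mean over the 6 libraries of at least 100 TPM in 10 genes and under 10 TPM in 17. The highest was Map1lc3a, at 385 ± 16.2 TPM in ET and 380 ± 27.2 TPM in CONT, followed by Ctsd (350 ± 53.9 in ET and 283 ± 44.7 in CONT), Pink1 (261 ± 40.6 and 224 ± 15.6) and Sqstm1 (230 ± 68.8 and 184 ± 6.53). Ctsl, Gabarap, Lamp1, Map1lc3b, Bnip3 and Ctsb came next, between 160 and 103 TPM on average. The lowest was Gla, at 0.757 ± 0.323 TPM in ET and 0.51 ± 0.115 TPM in CONT. Of the 41 pairs of neighbours in this order only Atg14 and Gla had ranges over the 6 libraries that did not overlap. Neighbours with overlapping ranges can still keep their order within each library, as Ctsd lay above Pink1 in all 6. The order within libraries was not counted over the pairs. On the log2(TPM + 1) scale the median fold change of all tested genes was 0.15, so TPM levels of ET and CONT are set side by side here without a test.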

How the data were processed

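STAR 2.7.0f, RSEM 1.2.31 and mm10 are named in the submitters' processing notes. The authors deposited expected counts per gene, not normalized, and TPM and FPKM values per library, per the file headers. For strand handling and the annotation release, the sources used here give nothing. Expected counts were rounded and filtered with filterByExpr (minimum count 10, minimum total 15), which left 15727 genes with all 42 among them. CPM used TMM factors of 0.92 to 1.19. Groups were compared with the robust quasi-likelihood test of edgeR (two-sided; adjusted p threshold 0.05), and an SE is the fold change divided by the square root of F. Effective length is expected count over FPKM, scaled by the library total, and clustering of these lengths over 5740 genes gave the library sets. Differences between libraries of a group exceeded counting noise (chi-square per gene, with a mean of 18.8 to 190 and a median of 1.65 to 18.6). By rule, values in every library go to genes that passed, genes with separate CPM ranges and the Atg8 family, and each other list names at most 4 genes of lowest p with a mean CPM of at least 1. Per-library values of any other gene were chosen after they were seen. The genes, lists and alternatives were chosen with earlier results of these data known. The fit was tested on simulated counts. Coordinates and exon overlaps come from GENCODE vM21 (GRCm38) and start windows from RefSeq (GRCm38.p6). Tools were edgeR 4.0.16 and DESeq2 1.42.0 with limma 3.58.1 in R 4.3.3, and pandas 2.3.3 in Python 3.11.15. Settings tried beside these changed the scaling (RLE, upper-quartile, library totals, mitochondrially encoded genes taken out), the filter (none, or a CPM of 1 or more in 3 libraries), the tool (DESeq2, limma-voom, and limma-trend on log2(TPM + 1) or log2(TPM + 0.1) where mean TPM was 0.5 or more), the threshold (0.10), the model (a term for library set) and the libraries (each left out, or CONT replicate 3 with ET replicate 1).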

Additional observations from a re-analysis of the deposited data

How the results depend on the processing

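No gene of the 42 passed in edgeR under other scaling factors, filters, the set term, a threshold of 0.10 or without any 1 library, nor in limma. DESeq2 called 184 genes, 2 of them among the 42, and limma-trend called 1 and 2 genes on log2(TPM + 1) and log2(TPM + 0.1). Without CONT replicate 3 and ET replicate 1 edgeR called 828 genes, 6 of the 42, and 32 of the 42 had separate ranges (60.7% of all genes). With fewer libraries ranges separate more easily: without 1 library the count was 11 to 25 (25 without ET replicate 1, 36.6% of all genes, and 18 without CONT replicate 3, 34.2%). With library totals only it was 17 (14.9%), where the median of all genes shifted by 0.12. The median fold change of the 42 genes was 0.14 to 0.22 without single libraries, and 0.31 and 0.36 on the TPM scales, where the median of all genes shifted by 0.15 and 0.18. Gabarapl1 kept its direction in all 18 alternatives (0.73 to 1.1, adjusted p 0.00512 to 0.999), as did Ctsl (0.50 to 0.81, adjusted p 0.0043 to 0.999). Directions turned for Gabarap (0.082 with library totals, 0.17 on both TPM scales, 0.005 without both libraries, -0.11 to 0.043 without single ones) and for Gabarapl2 (-0.044 with upper-quartile factors and with the set term, -0.003 in limma-voom, -0.12 to 0.10 without single libraries). They also turned for Map1lc3a (0.023 on both TPM scales) and Neu1 (0.088 and 0.10). These TPM values stayed below the medians of all genes on the same scales (0.15 and 0.18), and the cause of the turns was not tested. No paired analysis was possible because the labels carry no replicate numbers, and those used here were given in deposit order and pair no libraries. The common biological coefficient of variation of 0.297 limits what 3 libraries per group can show.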

Other observations

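The effective gene lengths in the files reflect the transcript forms to which reads were assigned. They differed between the library sets for 13 of the 42 genes, 8 longer in set 2 and 5 longer in set 1. The sets were themselves drawn from a clustering of effective lengths, so separation by set is in part built in. The count is therefore not a test of the 42 genes, and the share over all genes was not computed. Sqstm1 showed the largest difference, at 1754 and 1845 bases in ET replicates 2 and 3 and 1691 in CONT replicate 3 (set 2), and at 1455 bases in ET replicate 1 and 1438 and 1444 in CONT replicates 1 and 2 (set 1). Pink1 was at 2212, 2256 and 2245 bases in the same libraries of set 2 and at 1937, 1885 and 1895 in those of set 1. Ctsl was shorter in set 2, at 837, 853 and 867 bases, against 903, 949 and 921 in set 1. Gabarapl1 had nearly the same length in every library, between 1719 and 1746 bases. The sets hold unequal numbers of ET and CONT libraries, so a difference between sets carries in part into the groups. Lengths were also separate between the groups, shorter in ET, for 5 of the 42 genes, Atg9a, Becn1, Map1lc3b, Neu1 and Wipi2. For this count too the share over all genes was not computed, so it is not read as a trait of the 42. Map1lc3b was at 1551, 1437 and 1412 bases in ET libraries, against 1638, 1651 and 1580 in CONT libraries. TPM divides by these lengths, so they enter the TPM values of these genes.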
